A study of Mus musculus with 36 samples.

Results

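SREBP2 and the genes of cholesterol synthesis were followed in mouse liver as a set of 27 genes, chosen by symbol from their known roles and found by name among the 24421 genes of every count table. Of these, 19 encode enzymes of the pathway from acetyl-CoA to cholesterol, 4 encode SREBP2 or the proteins that activate it, and 4 encode proteins that move sterols. All 27 were among the 13299 genes tested in the high-fat diet experiment, the 13570 tested in the standard diet experiment and the 14105 tested over both.

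All groups were male C57BL/6J mice that had eaten CDAHFD, a fat-rich diet lacking choline that makes the liver fatty and fibrotic, for 12 weeks. In the first experiment, 2 weeks on a high-fat diet (HFD) followed, with weekly injections of either 4.3 mg/kg Fc, the control, in 10 mice or 5 mg/kg Fc(mML1)B3 in 10 mice. In the second, they received a standard diet for 10 days with 3 injections at the same doses, Fc in 9 mice and Fc(mML1)B3 in 7. Fc(mML1)B3 is an antibody Fc fragment that carries inserted macrocyclic peptides and activates Met, the receptor of hepatocyte growth factor, and Fc is the same fragment without the peptides. Each liver gave 1 RNA library with 14949035 to 28466853 counted read ends. No member had fewer than 64 read ends in any library. Hepatocyte markers summed to between 73115 and 152882 CPM (read ends scaled to library size) over all libraries, while neutrophil markers summed to 4.30 to 67.1 CPM. In bulk liver, fewer cells of a type and less RNA per cell cannot be told apart.

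SREBP2 is made as a membrane protein of the endoplasmic reticulum, where Scap holds it and the Insig proteins retain the pair when sterols are plentiful. When membrane sterol falls, Scap carries it to the Golgi apparatus, the site 1 and site 2 proteases Mbtps1 and Mbtps2 release its active part, and this part enters the nucleus and raises transcription of the synthesis genes. The liver is a main site of cholesterol synthesis, and these enzymes are known to be transcribed together.

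The promoters of 5 of the members that were lower under the HFD are shown because they are the stretches through which SREBP2 and its partners are known to act. Hmgcs1 was chosen as the member with a sterol regulatory element, and the other 4 after their values were seen, among members with a single promoter entry. Each runs from 250 bases before to 50 after the transcription start in the GRCm38.p6 build of RefSeq. Capitals mark the sterol regulatory element TCACNCCAC, the NF-Y box CCAAT and the E-box CACGTG, on either strand, and none of the marked motifs overlapped in these windows. The regions are chr9:42264251-42264550 for Sc5d and chr8:64733529-64733828 for Msmo1 (both on the minus strand), and chr13:119690101-119690400 for Hmgcs1, chr10:76531355-76531654 for Lss and chr5:114444019-114444318 for Mvk (plus strand).
Hmgcs1: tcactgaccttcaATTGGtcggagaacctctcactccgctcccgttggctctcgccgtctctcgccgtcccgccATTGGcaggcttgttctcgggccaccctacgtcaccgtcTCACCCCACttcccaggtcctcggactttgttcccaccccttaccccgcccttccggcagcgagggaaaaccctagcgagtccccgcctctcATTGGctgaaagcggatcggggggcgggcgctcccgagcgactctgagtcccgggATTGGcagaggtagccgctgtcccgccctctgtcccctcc
Msmo1: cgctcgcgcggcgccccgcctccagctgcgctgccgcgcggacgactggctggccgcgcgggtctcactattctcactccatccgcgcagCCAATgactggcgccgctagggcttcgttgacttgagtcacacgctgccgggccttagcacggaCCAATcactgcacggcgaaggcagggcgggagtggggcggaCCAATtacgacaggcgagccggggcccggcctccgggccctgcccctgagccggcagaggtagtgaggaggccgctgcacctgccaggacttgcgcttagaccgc
Sc5d: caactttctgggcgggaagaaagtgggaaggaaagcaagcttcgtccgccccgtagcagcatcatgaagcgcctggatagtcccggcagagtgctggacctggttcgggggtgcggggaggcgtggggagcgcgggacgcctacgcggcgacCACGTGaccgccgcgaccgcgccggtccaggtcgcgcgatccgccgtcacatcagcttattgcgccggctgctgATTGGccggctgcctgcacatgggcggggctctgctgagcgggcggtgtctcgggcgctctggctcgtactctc
Lss: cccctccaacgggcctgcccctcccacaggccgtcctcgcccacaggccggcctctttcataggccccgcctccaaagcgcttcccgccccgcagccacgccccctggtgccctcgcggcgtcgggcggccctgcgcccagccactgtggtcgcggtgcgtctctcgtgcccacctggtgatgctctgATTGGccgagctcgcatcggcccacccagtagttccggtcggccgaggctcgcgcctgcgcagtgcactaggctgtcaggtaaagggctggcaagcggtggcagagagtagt
Mvk: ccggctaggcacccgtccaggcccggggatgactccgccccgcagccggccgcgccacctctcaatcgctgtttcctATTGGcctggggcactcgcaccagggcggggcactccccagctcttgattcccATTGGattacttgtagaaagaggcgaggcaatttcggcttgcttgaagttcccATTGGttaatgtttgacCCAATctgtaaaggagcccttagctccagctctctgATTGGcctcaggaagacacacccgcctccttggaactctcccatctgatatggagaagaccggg
Promoters of 22 members were in the table, as 26 entries. Fdps, Fdft1, Sqle, Stard4 and Npc1 had none. The sterol regulatory element was found in 1 of the 26 entries, that of Hmgcs1, and in 1.24% of all 32851 promoters of that length. The NF-Y box was found in 18 of 26 (69.2%, against 37.4% of all promoters) and the GC-rich Sp1 box GGGCGG in 21 of 26 (80.8%, against 35.7%). The clock E-box stood in 5 of 26 (19.2%, against 7.15%), belonging to Hsd17b7, Sc5d, Dhcr7 and Scap. These matches describe the letters of each window.

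Compared per length, as RPKM (counts scaled by exon length and library size), the most abundant members in Fc mice under the HFD were Fdps, which makes farnesyl diphosphate (median 444), and Sc5d, the sterol desaturase (median 304). Msmo1 followed at 232 and Hmgcs1 at 212. Ggps1, which makes the longer geranylgeranyl diphosphate, and the protease gene Mbtps2 were the lowest, at 3.02 and 2.31. Srebf2, the gene of SREBP2, had a median of 10.9.

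**Figure D1:**
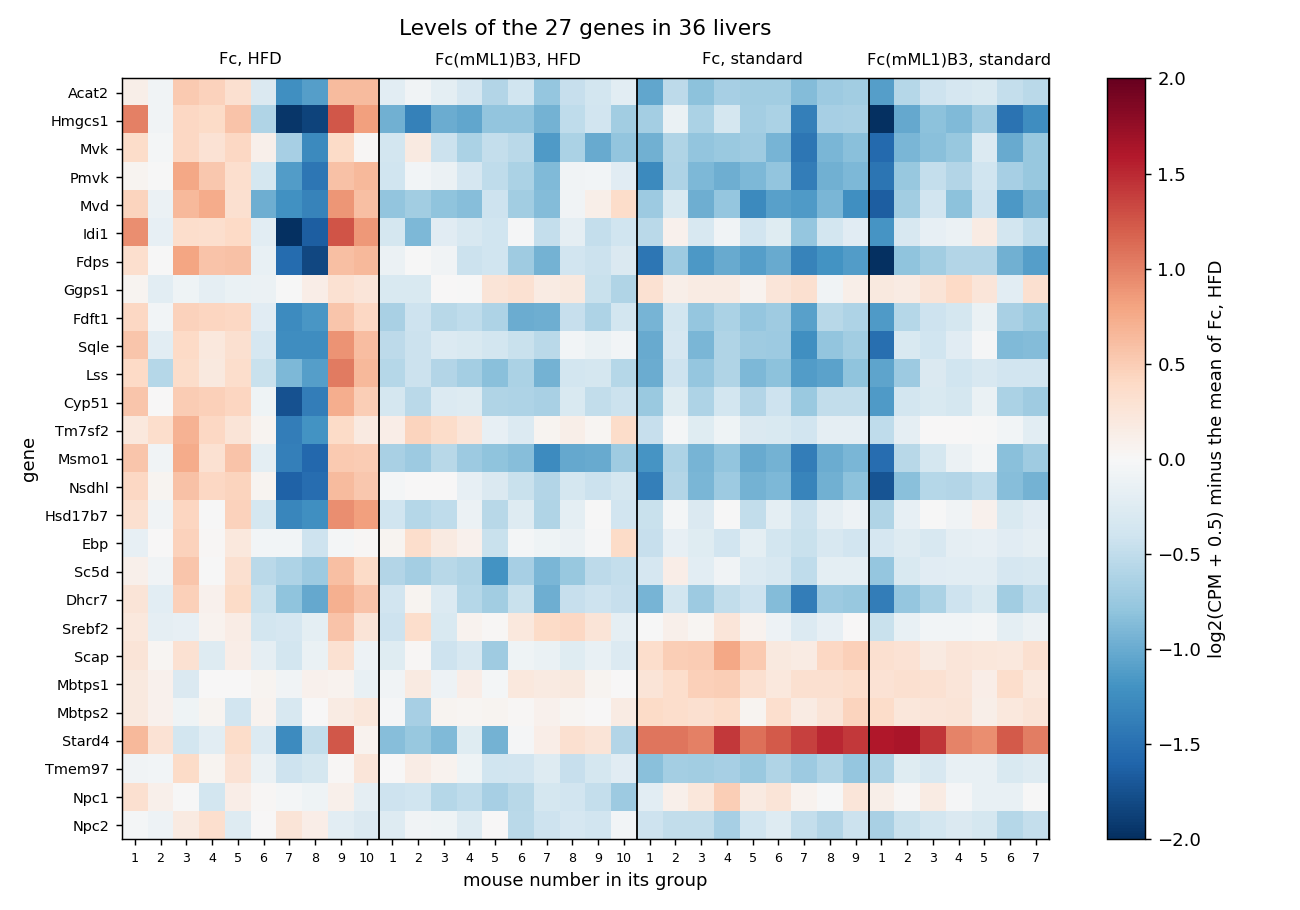
Levels of the 27 genes (rows) in the 36 livers (columns, by group and mouse number), as log2(CPM + 0.5) minus the mean of the Fc mice under the HFD, with red above and blue below it. Mice 7 and 8 of the Fc group under the HFD stand apart as blue columns over the synthesis genes, and Stard4 is red throughout the standard diet.

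Under the HFD, 7 of the 19 cholesterol synthesis genes and the transport gene Npc1 were lower with Fc(mML1)B3. Of the 27 members, 8 were lower and 0 higher at an adjusted p below 0.05 (quasi-likelihood F-test of edgeR, Benjamini-Hochberg over all genes), against 6.68% of all genes lower and 8.14% higher (14.8% in either direction). At an unadjusted p below 0.05, 18 were lower and 0 higher by edgeR and by DESeq2, and 13 lower and 0 higher by limma-voom. The share of all genes at that threshold was not counted, so these counts have no background beside them. After adjustment DESeq2 and limma-voom also called 0 higher. Over all members, 23 of 27 estimates were negative, with a median log2 fold change of -0.47, against -0.01 over all genes tested. Of the 19 synthesis enzymes, 17 had negative estimates, with a median of -0.56. With the clock difference described further on as a covariate 0 members were lower by edgeR, in a fit whose groups do not overlap in that covariate, and with the treated libraries of a single run of library numbers 1 was in the first (4 libraries; Npc1) and 6 were in the second (6 libraries). Cell type markers also moved with the protein, 3 of 4 neutrophil markers and 1 of 5 lymphocyte markers being lower and 2 of 8 hepatocyte markers higher by edgeR, and their part in the result was not tested. Limma-voom called 0 of the 4 neutrophil markers (1 lower at an unadjusted p below 0.05), whose sum was 5.15 to 12.2 CPM in Fc(mML1)B3 mice and was high in only 2 Fc mice.

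A pair of Fc mice of this experiment, numbers 7 and 8, stood apart in most synthesis genes. They had neutrophil marker sums of 67.1 and 65.9 CPM, against 5.46 to 15.9 in the other 8 Fc mice, and macrophage marker sums of 2097 and 2223, against 1020 to 1975. One of them was the lowest Fc mouse in 18 of the 19 synthesis genes, and both lay below all Fc(mML1)B3 mice in 13. No member had CPM ranges that did not overlap between the proteins, against 0.962% of all genes, and without these mice 4 members did (Fdft1, Cyp51, Msmo1 and Nsdhl), against 1.67%. Without them 19 members were lower and 0 higher by edgeR, where 6.24% of all genes were lower and 7.44% higher. This alternative was added after their low values in these same genes were seen. Leaving out low Fc mice widens the difference by construction, so these counts give no support. The shares of all genes are no like comparison, since the mice were not picked on all genes. The part of neutrophils in the levels of these mice was not tested. An Fc mouse on the standard diet, number 5, had a neutrophil sum of 66.5 CPM. It was the lowest of its group in Mvd and Hsd17b7, while mouse 1 or 7 was the lowest in 16 of the 19 synthesis genes. On the log2 mean of these genes relative to the Fc HFD mean, mouse 5 lay at -0.64, near its group median of -0.63.

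At the entry to the pathway, Hmgcs1, which makes HMG-CoA, ranged in Fc mice from 149.6 to 1368 CPM with a median of 758. In Fc(mML1)B3 mice it ranged from 225 to 443 with a median of 315, so that all 10 lay below the Fc median while mice 7 and 8 lay below them. It was lower by a log2 fold change of -1.13 (SE 0.29, adjusted p = 0.012 by edgeR). This was the only member past the limits the study used under this diet, an adjusted p below 0.1 and a fold over 2, where 0.677% of all genes were lower and 0.662% higher. Without mice 7 and 8 its log2 fold change was -1.38. Acat2, the thiolase of the step before, had medians of 144 CPM with Fc and 96.8 with Fc(mML1)B3, and its log2 fold change of -0.47 (SE 0.19) missed the threshold at an adjusted p of 0.094 by edgeR. A near-identical paralog of Acat2 is annotated, so its read ends may be undercounted.

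Among the enzymes from mevalonate to the isoprenoids, 1 of 6 was called. Mvk, mevalonate kinase, ranged from 14.7 to 48.7 CPM with Fc (median 41.8) and from 16.3 to 41.4 with Fc(mML1)B3 (median 24.01). All 10 Fc(mML1)B3 mice were below the Fc median, though the groups overlapped. Its log2 fold change was -0.63 (SE 0.18, adjusted p = 0.021 by edgeR). Idi1, the isopentenyl diphosphate isomerase, spanned 16.5 to 176 CPM in Fc mice and 39.0 to 71.7 in Fc(mML1)B3 mice, and Fdps 132.998 to 815 and 245 to 469. Their log2 fold changes of -0.65 (SE 0.28) and -0.56 (SE 0.25) had adjusted p-values of 0.12 and 0.13 by edgeR. Pmvk and Mvd, the next kinase and the decarboxylase, had estimates of -0.45 and -0.61 that did not pass, and Ggps1 had -0.05.

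At the branch to sterols, 2 of 3 were called. Fdft1, squalene synthase, ran from 83.4 to 293 CPM with Fc (median 267) and from 100.3 to 155 with Fc(mML1)B3 (median 132.95). The 8 Fc mice other than 7 and 8 all lay above the whole treated group. Its log2 fold change was -0.72 (SE 0.19, adjusted p = 0.011 by edgeR). Some exons of Fdft1 overlap those of Ctsb, and the counting ignored strand. Lss, lanosterol synthase, fell by 0.73 on the log2 scale (SE 0.20, adjusted p = 0.016 by edgeR) from a median of 100.2 CPM to 55.3, and its range in Fc mice, 38.4 to 171, again enclosed that of 42.6 to 64.5 with Fc(mML1)B3. Its exons overlap those of 4930483K19Rik. Sqle, squalene epoxidase, had a log2 fold change of -0.45 (SE 0.20, adjusted p = 0.14 by edgeR).

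From lanosterol to cholesterol, 3 of 8 were called. Msmo1, the methylsterol monooxygenase, had a median of 423 CPM with Fc (107 to 533) and of 187 with Fc(mML1)B3 (133.5 to 217). Again the 8 other Fc mice lay above all 10 Fc(mML1)B3 mice. Its log2 fold change was -0.99 (SE 0.22, adjusted p = 0.0033 by edgeR). Sc5d fell by 0.75 (SE 0.15, adjusted p = 0.0015 by edgeR) from 685 to 427 CPM at the median, with ranges of 399 to 1002 and 290.0 to 476. Dhcr7, which catalyses the last step, fell by 0.54 (SE 0.18) at an adjusted p of 0.044 by edgeR, a call lost in 16 of 20 fits with 1 library left out. Cyp51, the lanosterol demethylase, spanned 73.8 to 411 CPM with Fc and 158 to 206 with Fc(mML1)B3, and its log2 fold change was -0.62 (SE 0.22, adjusted p = 0.058 by edgeR). For Nsdhl it was -0.42 (adjusted p = 0.20) and for Hsd17b7 -0.51 (adjusted p = 0.11), both by edgeR. Tm7sf2 and Ebp had estimates of 0.03 and 0.04. Exons of Tm7sf2 overlap those of Vps51.

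**Figure D2:**
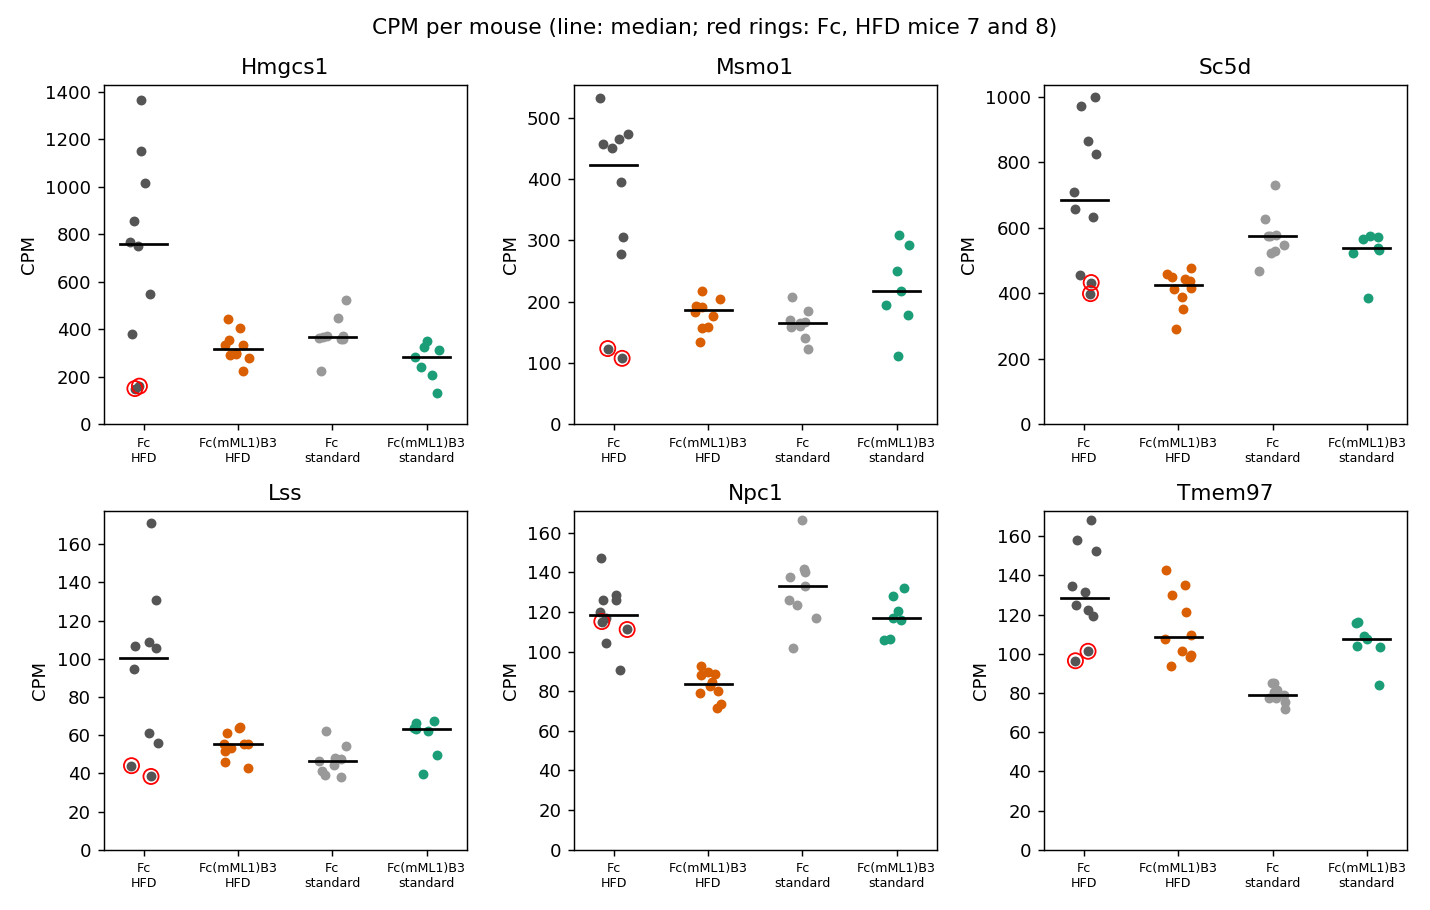
CPM of 6 members in each mouse by group, with a line at the median and red rings on mice 7 and 8 of the Fc group under the HFD. For Hmgcs1 and Msmo1 both ringed mice lie below every Fc(mML1)B3 mouse of the HFD experiment, whereas for Npc1 they lie among the other Fc mice.

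Among the sterol transport genes, Npc1, whose protein exports cholesterol from late endosomes and lysosomes, was the clearest. It ranged from 90.7 to 147 CPM with Fc (median 118) and from 71.3 to 92.5 with Fc(mML1)B3 (median 83.5), and 9 of 10 Fc(mML1)B3 mice lay below every Fc mouse. Its log2 fold change was -0.51 (SE 0.07, adjusted p = 4.4e-05 by edgeR; 2-sided permutation p = 5e-05 with 100000 resamples). It was as large without mice 7 and 8, at -0.52. Exons of Npc1 overlap those of 3110002H16Rik. Permutation p-values are not adjusted for the number of genes. For the 7 synthesis members called they were larger than the unadjusted ones of edgeR. They ran from 0.0013 for Sc5d and 0.0089 for Msmo1 to 0.035 for Hmgcs1 and 0.041 for Dhcr7. Stard4, which shuttles sterol through the cytosol, had an estimate of -0.43, Tmem97 of -0.20 and Npc2, the partner of Npc1, of -0.24, and none passed by edgeR. With limma-voom Npc2 was lower (-0.25, adjusted p = 0.036).

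Srebf2 and the genes of its processing were not called. Srebf2 ranged from 39.5 to 76.4 CPM with Fc (median 49.8) and from 38.3 to 68.5 with Fc(mML1)B3 (median 56.6). Its log2 fold change was 0.08 (SE 0.12, 95% interval -0.15 to 0.32). Scap had -0.26 (adjusted p = 0.063 by edgeR), while Mbtps1 and Mbtps2 had 0.08 and -0.02. Of these 4 genes, edgeR called 0 (1 lower at an unadjusted p below 0.05), and DESeq2 and limma-voom each called 1, Scap, lower. These are transcript levels, and the cleaved SREBP2 protein was not measured in the count tables.

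Under the standard diet, Tmem97 and Lss were higher with Fc(mML1)B3 and Hmgcs1 was lower, a share near that of all genes. In all, 2 of 27 were higher and 1 lower, against 8.56% of all genes higher and 7.55% lower (16.1% in either direction). The source text states more than 1 pair of limits for this diet. With a fold over 1.5 required beside the adjusted p below 0.05, used here as the limits of the study, 0 were higher and 0 lower, against 1.05% and 1.31% of all genes, and no member had ranges without overlap, against 2.9%. Their median log2 fold change was 0.06. Of the cell type markers, 2 of 8 stellate cell, 1 of 8 macrophage, 1 of 5 cholangiocyte and 1 of 8 hepatocyte markers were lower and 1 of 8 hepatocyte markers higher, and their part was not tested. Tmem97, a sterol-regulated protein that binds Npc1, ran from 71.8 to 85.2 CPM with Fc and from 84.0 to 116 with Fc(mML1)B3. In 6 of 7 mice it lay above all 9 Fc mice. Its log2 fold change was 0.41 (SE 0.06, adjusted p = 5.5e-05 by edgeR, exact permutation p = 0.00026). Lss rose by 0.33 (SE 0.11, adjusted p = 0.044 by edgeR), with 5 of 7 mice above all Fc mice (exact permutation p = 0.026), and Hmgcs1 fell by 0.51 (SE 0.17, adjusted p = 0.046 by edgeR), with all 7 below the Fc median (exact permutation p = 0.015). Leaving out 1 library at a time, the call of Lss was lost in 12 of 16 fits and that of Hmgcs1 in 13. Hmgcs1 was also not called by limma-voom (adjusted p = 0.051), with the clock covariate or in the run of library numbers that holds both proteins. Msmo1 had an estimate of 0.44 (SE 0.15, adjusted p = 0.056 by edgeR), and Srebf2 one of -0.14 (SE 0.07, adjusted p = 0.19 by edgeR). Scap, at -0.19 (adjusted p = 0.061 by edgeR), was called lower by DESeq2 (0.046) and limma-voom (0.032), and limma-voom called Msmo1 (0.030) and Acat2 (0.037) higher. Mouse 1 of the Fc(mML1)B3 group was the lowest of its group in 18 of the 19 synthesis genes. Without it 6 members were higher, where 7.88% of all genes were. This mouse was picked for its low values in these genes, so the count without it gives no support.

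**Figure D3:**
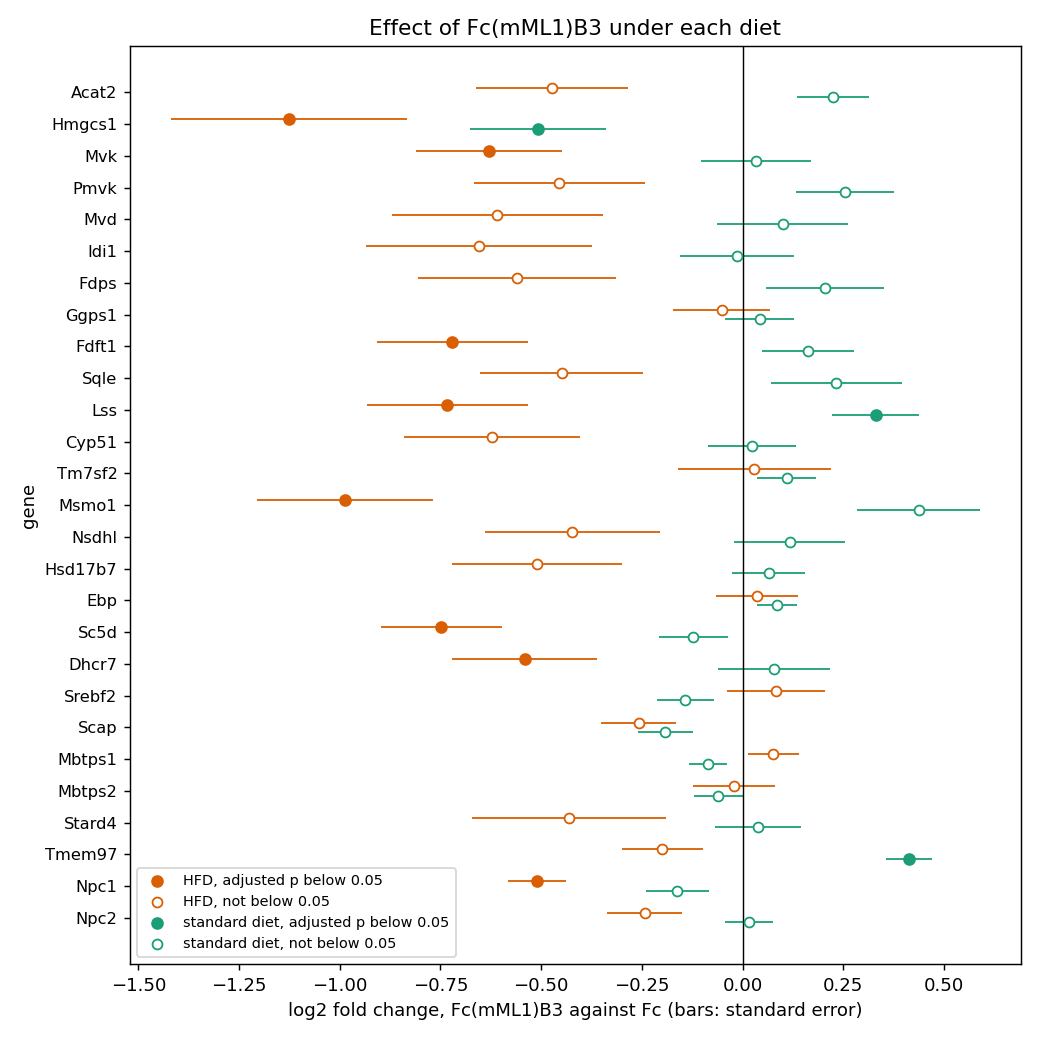
Log2 fold change of Fc(mML1)B3 against Fc for each member, with standard errors, under the HFD (orange) and the standard diet (green). Filled points passed an adjusted p below 0.05, 8 of them under the HFD, all to the left of 0, and 3 under the standard diet.

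For 7 members the response to Fc(mML1)B3 was not the same in both experiments. As the effect under the standard diet minus that under the HFD, tested in a single model over 36 libraries, 7 were higher and 0 lower, against 4.66% and 4.4% of all genes (9.06% in either direction). At an unadjusted p below 0.05, 16 were higher and 0 lower by edgeR, 15 and 1 by DESeq2, and 17 and 0 by limma-voom. The share of all genes at that threshold was not counted, so these counts have no background beside them. After adjustment DESeq2 and limma-voom also called 0 lower. The differences were 1.44 for Msmo1 (SE 0.29, adjusted p = 0.00083 by edgeR), 1.08 for Lss (SE 0.26), 0.90 for Fdft1 (SE 0.24), 0.72 for Acat2, 0.64 for Sc5d, 0.63 for Tmem97 and 0.36 for Npc1. With the clock covariate 0 were higher by edgeR. The call of Acat2 was lost in 29 of the 36 fits that left out 1 library, that of Npc1 in 8 and that of Sc5d in 3. Of the cell type markers, 2 of 5 lymphocyte markers were higher and 1 of 8 hepatocyte markers lower in this difference, and their part in it was not tested. All 19 synthesis genes had a positive difference. Without Fc mice 7 and 8, 18 members were higher, where 4.8% of all genes were higher and 5.24% lower. These mice were picked for low values in these genes, so their removal widens the difference by construction and gives no support. For Hmgcs1 the difference between the experiments was 0.64 (SE 0.38, adjusted p = 0.35 by edgeR). Diet went with experiment, duration and number of doses, and these cannot be told apart.

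Between the experiments the level of many members differed in Fc mice. In these, 17 of 27 were lower and 4 higher under the standard diet than under the HFD, against 24.6% and 23.3% of all genes (47.9% in either direction). Cell type markers moved with this difference, 5 of 5 lymphocyte, 6 of 8 stellate cell, 4 of 8 macrophage, 2 of 5 cholangiocyte and 1 of 4 neutrophil markers being lower and 5 of 8 hepatocyte and 1 of 5 endothelial markers higher, and their part in it was not tested. Fdps differed by -1.33 (SE 0.22), Msmo1 by -1.14 and Tmem97 by -0.73. In the opposite direction, Stard4 rose by 1.10 (SE 0.21), from a median of 27.3 to 67.7 CPM, and Scap by 0.42, Mbtps1 by 0.33 and Mbtps2 by 0.29. In Fc(mML1)B3 mice, 3 were lower (Nsdhl, Ebp and Npc2, by 0.56, 0.28 and 0.22) and 6 higher, against 17.9% and 20.7% of all genes (38.5% in either direction), a share near that of all genes. With upper-quartile factors 3 were higher and 5 lower. Here 4 of 8 stellate cell, 3 of 8 macrophage, 2 of 5 cholangiocyte, 1 of 5 lymphocyte, 1 of 4 neutrophil and 1 of 8 hepatocyte markers were lower, and 2 of 8 hepatocyte, 1 of 5 lymphocyte and 1 of 5 endothelial markers higher. The higher ones were Stard4 (1.59, SE 0.22), Npc1 (0.51), Scap (0.51), Sc5d (0.36), Mbtps2 (0.27) and Mbtps1 (0.19). Of these calls, that of Sc5d was lost in 13 of the 36 fits with 1 library left out, that of Npc2 in 8 and that of Nsdhl in 7. With the clock covariate 2 were higher and 0 lower.

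The synthesis genes varied together between mice of 1 group. After subtracting group means, the 171 pairs among the 19 had a median Pearson correlation of 0.85 over 36 libraries. It was 0.93 in Fc mice under the HFD, 0.36 in Fc(mML1)B3 mice under the HFD, 0.80 in Fc mice and 0.90 in the treated mice of the standard diet. Without mice 7 and 8 the overall median was 0.68. The points share library and depth, so these are descriptions. Of the members, Fdft1 (0.97), Cyp51 (0.96) and Msmo1 (0.96) followed the mean of the other synthesis genes most closely. Srebf2 had 0.52, Npc1 0.07, and Ggps1 -0.06. Of genes in the other lists, Acss2 (0.95), Fasn (0.81) and Scd1 (0.76) followed that mean most closely. Among all other genes outside the lists, Rdh11 (0.94), Mmab (0.88), Acacb (0.88), Ugt1a5 and 0610007P14Rik (0.87 each), Pdk1, Aldh1a7, Gulo, Rdh16 and Nxpe2 had the highest correlation, the last at 0.81. Ugt1a5 shares exons with its family, so its read ends are uncertain. Without mice 7 and 8, Rdh11 had 0.86 and Nxpe2 0.36.

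As a mean over the 19 genes relative to the Fc HFD mean, Fc mice under the HFD ranged from -1.21 to 0.68 on the log2 scale and Fc(mML1)B3 mice from -0.70 to -0.31. In 17 of the 19 genes the SD of log2 CPM was larger in Fc than in Fc(mML1)B3 mice under the HFD, against 46.6% of all genes tested, and in 15 without mice 7 and 8, against 38.8%. Genes of the molecular clock differed with the protein in both experiments, 5 of 16 being higher and 8 lower under the HFD, 7 of 17 higher and 5 lower under the standard diet, and 9 higher and 5 lower in the difference between them. The difference in log2 CPM between Arntl, which drives the clock, and Dbp, one of its targets, ran under the HFD from -6.87 to -4.83 in Fc mice and from -1.84 to 2.94 in Fc(mML1)B3 mice, with no overlap. On the standard diet the ranges overlapped, at -5.07 to -2.40 with Fc (median -4.24) and -6.13 to -3.84 with Fc(mML1)B3 (median -5.26). Its correlation with the synthesis mean within a group was -0.28 in Fc and -0.07 in Fc(mML1)B3 mice under the HFD (10 each), and 0.24 in 9 Fc and 0.32 in 7 treated mice of the standard diet, as a description. Since the groups do not overlap in it, the clock and the protein cannot be told apart under the HFD. Under the HFD, library numbers ran from 1 to 10 with Fc, and from 1 to 4 and 1 to 6 with Fc(mML1)B3. These numbers do not show whether Fc and treated libraries shared a run. Whether run went with protein is not known and was not tested.

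**Figure D4:**
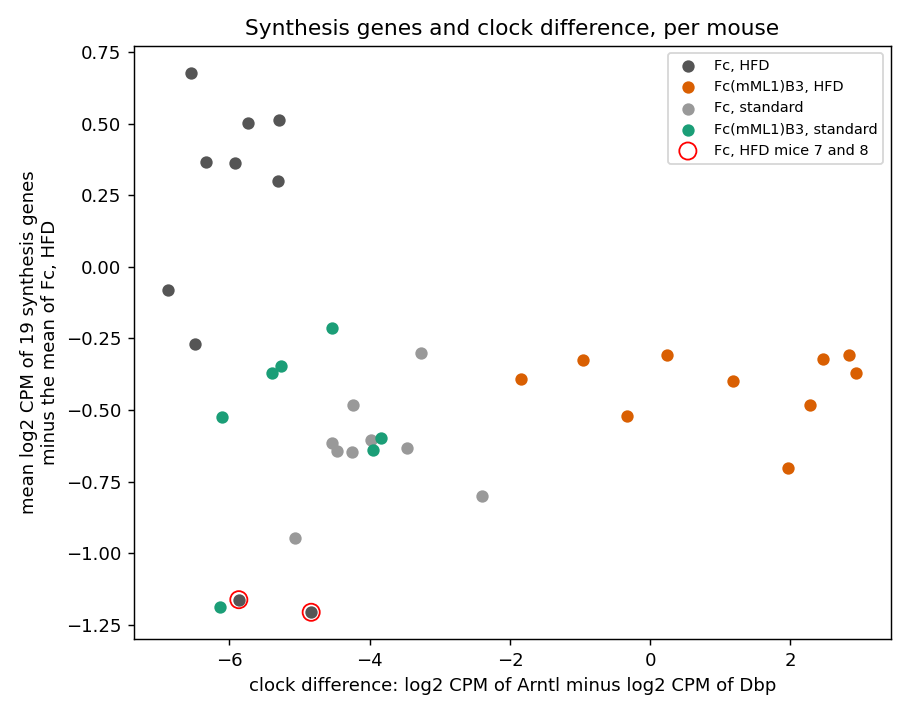
Mean log2 CPM of the 19 synthesis genes relative to Fc mice under the HFD (vertical axis) against log2 CPM of Arntl minus that of Dbp (horizontal axis), 1 point per mouse, with mice 7 and 8 ringed. Fc(mML1)B3 mice under the HFD lie between -0.70 and -0.31 on the vertical axis and to the right of all Fc mice.

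In the feedback that holds SREBP2 back, Insig2 moved in opposite directions. It ranged from 56.8 to 134.7 CPM with Fc under the HFD and from 117 to 352 with Fc(mML1)B3, a log2 fold change of 1.42 (SE 0.21, adjusted p = 6.9e-05 by edgeR). Under the standard diet it fell by 1.09 (SE 0.09, adjusted p = 7.7e-08 by edgeR), from 129.8 to 202 CPM down to 74.5 to 84.6, without overlap. The difference was -2.49. Of the 10 genes of that list, 1 was higher and 2 lower under the HFD, the latter Rnf145 (-0.48) and Erlin2 (-0.22), both ubiquitin-ligase-linked proteins of the endoplasmic reticulum, and 3 were higher and 1 lower under the standard diet, with Srebf1, the gene of SREBP1, at 0.43. Insig1 had -0.10 and 0.18, neither called. Among 15 genes of sterol storage, bile acid synthesis and efflux, 2 were higher and 3 lower under the HFD, with Cyp7b1 at 0.92 and Abcg8, a partner in a sterol exporter, at -0.81, and 3 were higher and 4 lower under the standard diet, with Cyp7a1, the rate-limiting enzyme of bile acid synthesis, at 1.72. Of 11 genes of acetyl-CoA supply and fatty acid synthesis, 0 were called under the HFD by edgeR (3 at an unadjusted p below 0.05, 0 by DESeq2 and 1 by limma-voom), and 7 were higher under the standard diet, including Thrsp (1.88) and Elovl6 (1.09). Of 10 genes that use isoprenoids, 0 were called under the HFD by edgeR (3 at an unadjusted p below 0.05, 0 by DESeq2 and 2 by limma-voom). Under the standard diet 2 were higher and 1 lower. Of all genes, 8.14% were higher and 6.68% lower under the HFD, and 8.56% and 7.55% under the standard diet. A count such as 1 of 10 is near these shares. At the unadjusted threshold no share of all genes was counted.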

How the data were processed

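RNA-seq counts of 36 livers, 1 library per mouse, were analysed. The authors trimmed reads with fastp, removed ribosomal RNA with Bowtie2 2.4.5, aligned to mm10 with STAR 2.7.10a and deposited counts per gene from featureCounts 2.0.3, which counted each end of fragments with both ends aligned, ignoring strand and leaving out reads with several alignments or over several genes. Overlapping genes and near-identical copies can therefore lose read ends. Groups came from the titles.

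Counts were tested in edgeR 4.0.16 (R 4.3.3) by its quasi-likelihood test, after TMM scaling and the filterByExpr filter on low counts, with p-values adjusted over all genes tested (Benjamini-Hochberg), at an adjusted p below 0.05. Each diet was fitted alone, and the difference of effects and the diet comparisons over all 36 libraries. Standard errors were derived from the F statistic. CPM used TMM totals, log2 values CPM + 0.5. Single members were also tested by permutation, exact under the standard diet, and the permutation p-values printed are unadjusted. The model was checked on simulated counts. DESeq2 1.42.0, limma-voom with quality weights (limma 3.58.1) and other settings were alternatives. The lowest chi-square per degree of freedom between 2 libraries of a group was 6.06, so none was a duplicate.

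The members and lists were chosen with earlier results of these data known. Named genes were all members, up to 4 genes called per other pathway list and comparison in order of p with Insig1, Insig2 and Srebf1, and the 10 outside genes most correlated with the synthesis mean. Libraries came from separate animals, so p-values measure the spread between animals.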

Additional observations from a re-analysis of the deposited data

Results flagged for a closer look

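The test of the difference between experiments passed for 7 members (effect under the standard diet minus effect under the HFD), namely Acat2 by 0.72, Fdft1 by 0.90, Lss by 1.08, Msmo1 by 1.44, Sc5d by 0.64, Tmem97 by 0.63 and Npc1 by 0.36 on the log2 scale.

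A single mouse lay far from the rest of its group in 10 of 108 combinations of member and group, where chance gives about 1 in 20 for independent groups. The members vary together and 5 of the 10 come from 1 mouse, so the number of such cases says little. Mouse 1 of the Fc(mML1)B3 group on the standard diet was the lowest for Acat2 (57.5 CPM, next 82.7), Pmvk (24.9, next 40.8), Sc5d (385, next 522), Srebf2 (37.6, next 44.9) and Tmem97 (84.0, next 103), and mouse 6 of that group for Ggps1 (6.37 CPM, next 8.44). Treated mouse 2 under the HFD was the highest for Mvk at 41.4 CPM (next 28.1) and the lowest for Mbtps2 at 6.49 (next 10.4). In Fc mice on the standard diet, mouse 7 was the lowest for Mvk at 13.02 CPM (next 18.4) and mouse 2 the highest for Mvd at 28.2 (next 21.1).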

How the results depend on the processing

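Under the HFD, 8 members were lower as reported. The count was 3 at an adjusted p below 0.01, 1 with the limits of the study, 5 with the replicate number as a block, 1 and 6 with the Fc(mML1)B3 libraries of the first and the second run of library numbers alone, 19 without Fc mice 7 and 8, and 7 to 16 leaving out 1 library, the highest without Fc mouse 7. Mice 7 and 8 were picked for low values in these genes, so the counts without them, here and below, give no support. No setting called a member higher. With the clock difference as a covariate it was 0, and Mvk (0.63), Fdps (0.15), Nsdhl (0.37), Tmem97 (0.34), Srebf2 (-0.37) and Mbtps1 (-0.081) changed sign, in a fit whose groups do not overlap in the covariate. With the first run alone Srebf2 was at -0.063 and Tmem97 at 0.022, and with the second Ggps1 at 0.024, Tm7sf2 at -0.077, Ebp at -0.045 and Mbtps2 at 0.060. Tm7sf2 was at -0.0022 with upper-quartile factors, and without mice 7 and 8 it was at -0.18 and Ebp at -0.015. Leaving out 1 library, Ggps1 ran from -0.095 to 0.0053, Tm7sf2 from -0.069 to 0.12, Ebp from -0.0011 to 0.10 and Mbtps2 from -0.058 to 0.046, none of them called as reported.

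Under the standard diet the 2 members higher became 4 with limma-voom, 1 with upper-quartile factors, 1 at an adjusted p below 0.01, 4 below 0.1, 0 with the limits of the study, 1 with the block and 1 to 6 leaving out 1 library. The 1 lower became 2 with DESeq2, upper-quartile factors and an adjusted p below 0.1, 0 below 0.01, with the limits of the study, with the block and with the run that holds both proteins, and 0 to 2 leaving out 1 library. With limma-voom it stayed at 1, but that was Scap in place of Hmgcs1. For the difference between experiments, 7 higher became 3 at an adjusted p below 0.01, 0 with the clock covariate (Npc1 then at -0.00048), 18 without mice 7 and 8 and 5 to 14 leaving out 1 library, the highest without Fc mouse 7 of the HFD. The study set no limits for a comparison of diets, and its fold over 1.5 with an adjusted p below 0.05 was used there. For the diets in Fc mice, 4 higher became 1 with these limits and 4 to 5 leaving out 1 library. The 17 lower became 16 to 20 leaving out 1 library. In Fc(mML1)B3 mice, 6 higher became 3 with upper-quartile factors and below 0.01, 1 with the limits of the study, 2 with the clock covariate and 5 to 7 leaving out 1 library, and 3 lower became 5 with upper-quartile factors and below 0.1, 1 below 0.01, 0 with the limits of the study and the clock covariate, 6 without mice 7 and 8 and 1 to 4 leaving out 1 library. The cause was not tested.

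Of 76 member values not printed, 19 changed sign under at least 1 alternative, 0 of which had been called. Replicate numbers did not pair the mice, with correlations of -0.68 to 0.35 over 10 pairs under the HFD and -0.19 to -0.02 over 7 pairs under the standard diet. Protein cannot be told apart from clock state under the HFD, nor diet from experiment. Whether library run went with protein under the HFD is not known.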
